A study of Homo sapiens with 8 samples.

Results

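Amino acids cross cell membranes through carriers of several solute carrier (SLC) families. Rows of the deposited gene table with symbols of the families SLC1, SLC3, SLC6, SLC7, SLC36, SLC38 and SLC43 were taken as members. Within these families the symbol alone decided, but the families were chosen with earlier results of these data known. The members were 36 of the 14526 genes in the table. The samples were cultures labelled HepG2, a line derived from a human liver carcinoma, grown in DMEM with 10% serum. The 4 control replicates carried no treatment, and the 4 SB-treated replicates were kept with 10 mM sodium benzoate (SB) for 24 h before total RNA was taken. Levels are RPKM (reads scaled to gene length and library size), as the authors computed them, so that genes of different length can be compared. Each comparison used limma on log2(RPKM + 1), with adjustment over all genes, and a log2 fold change on that scale understates the change of genes below a few RPKM.

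The SLC1 family holds sodium-driven carriers of glutamate and aspartate and exchangers of small neutral amino acids. SLC3A2 is a heavy subunit, a glycoprotein that escorts light subunits of the SLC7 family to the plasma membrane, where the pair exchanges one amino acid for another. Other SLC7 genes encode carriers of arginine and lysine that act alone. The SLC38 family takes up glutamine and related amino acids with sodium. Some carriers of the SLC36 family move small amino acids with protons, also across the lysosomal membrane. The SLC43 family lets large neutral amino acids run down their gradient. The SLC6 family is mixed, since beside amino acid carriers it holds those of GABA, taurine, creatine and serotonin. In liver, benzoate is activated to benzoyl CoA and joined to glycine to form hippurate, which is the basis of its medical use for the removal of nitrogen. Of 10 genes listed for that conjugation, GLYAT and its relatives and the ACSM genes, 9 had no row in the table. The exception, ACSM3, was at 1.61 ± 0.169 RPKM (SD, n = 4) in control and 1.44 ± 0.0185 RPKM (SD, n = 4) in SB-treated cells and was not called (limma adjusted p = 0.106).

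Whole reads could be recovered from the RPKM values of all 14526 genes, and the libraries held between 36964791 and 44846247 of them. Of 20 hepatocyte markers, 17 had no row, among them ALB, APOA1, TTR and HNF4A. The remaining 3 included TF, which was below 1 RPKM, and CPS1, and the summed level of all 3 was 6.87 to 7.70 RPKM in the control replicates and 11.95 to 12.28 RPKM in the SB-treated ones. The label of a liver line is therefore not borne out by most of its defining genes. Of 6 markers of blood cells 2 had rows, with a summed level of 2.09 to 2.34 RPKM in control and 2.18 to 3.14 RPKM in SB-treated replicates, and CD68 was called higher (limma adjusted p = 0.0173). Of 6 fibroblast markers 3 had rows, with a summed level of 6.13 RPKM in control replicate 1, 8.11 to 8.32 RPKM in the other controls and 6.07 to 6.29 RPKM in SB-treated replicates. Among these, COL3A1 was lower (limma adjusted p = 3.35e-05) and LUM was higher (limma adjusted p = 0.00803). The part of these marker genes in the results was not tested. Control replicate 1 stood apart from the other controls. It was the lowest control for 21 of the 36 members and the highest for 12, at 0.664 to 1.31 times the mean of the other controls. The share over all genes is not given here. Calls that change without control replicate 1, and called values that move by more than 1.5 times, are therefore given both ways. In RNA from whole cultures, less RNA per cell cannot be told apart from fewer cells that carry it.

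The families were represented unevenly. RefSeq lists 60 coding genes with such symbols, and 24 of them had no row. These included SLC3A1, the heavy subunit of kidney and gut, with its partners SLC7A9 and SLC7A13, and also SLC6A14, SLC6A19, SLC38A4 and SLC38A5. SLC38A12 had none under that symbol, but its older symbol TMEM104 has a row and was not taken. Members with a row had a median control level of 5.62 RPKM, against 8.30 RPKM for all genes. The 6 most abundant were SLC1A5, SLC7A5, SLC3A2, SLC38A2, SLC7A1 and SLC38A1, which stood above 60 RPKM in both groups and held 74.6% of the summed control level of the members. At the low end, 8 members stayed below 1 RPKM in both groups. Recovered reads per member and library ran from 28 to 35965.

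**Figure D1:**
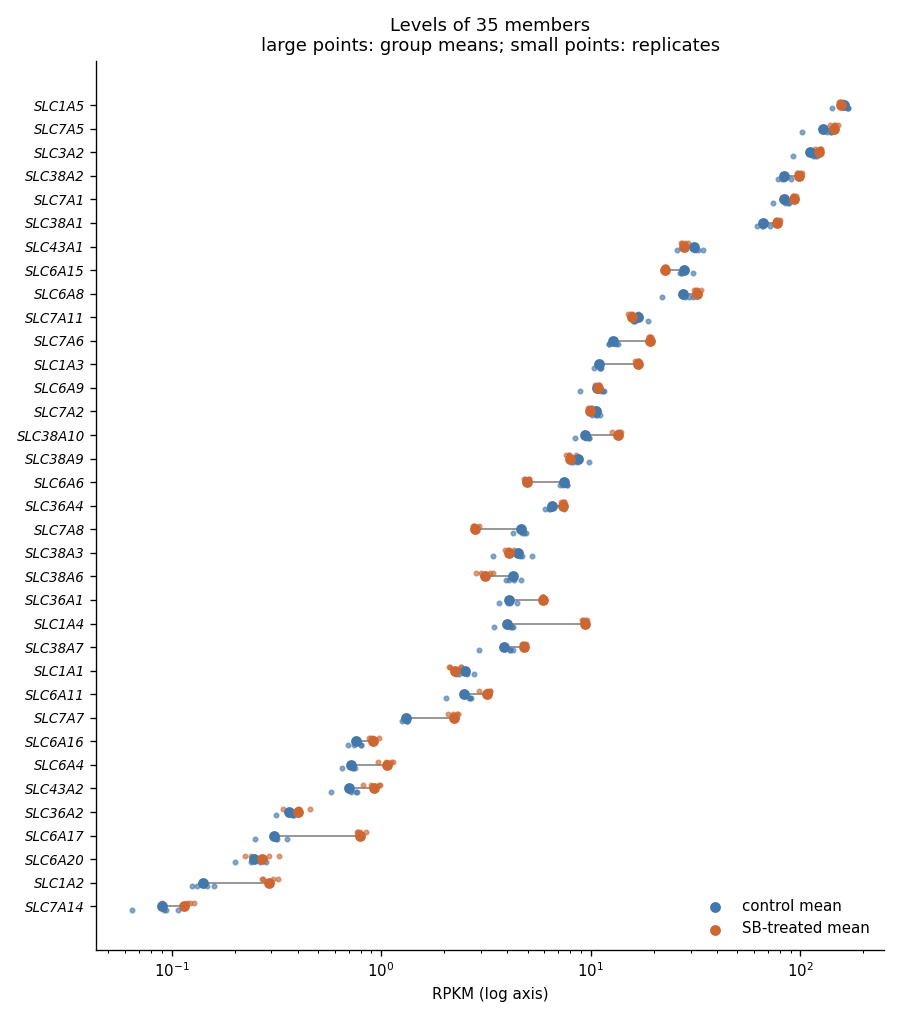
RPKM (log axis) of 35 of the 36 members, ordered by their control mean. Large points are the group means of 4 replicates, small points the replicates, and grey lines join the means. SLC1A5 is at the top with 162 RPKM in control and SLC7A14 at the bottom with 0.0896 RPKM, and the longest lines at any height belong to SLC1A4, SLC6A17 and SLC1A2.

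To show what lies at the start of the members, the RefSeq promoter windows (GRCh38.p14, 250 bases before each annotated start and 50 after it) were searched for the core of the C/EBP-ATF response element, TGATGNAA on either strand, an element known from genes that answer to amino acid shortage. A window was found for 29 members, which have 50 annotated starts between them, and none for 7 others, among them SLC1A2, SLC6A6, SLC6A15, SLC7A2, SLC7A11 and SLC38A3. The letters were found at 6 members, in 6 of the 50 windows and in 3.62% of all 35116 windows of the table. Because they carry this element, the stretches around it are printed 5′ to 3′ on the strand of the gene, with the 8 letters of the match in capitals:
SLC1A4: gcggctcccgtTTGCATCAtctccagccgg
SLC1A3: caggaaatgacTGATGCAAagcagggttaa
SLC1A5: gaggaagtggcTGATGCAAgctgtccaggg
SLC38A1: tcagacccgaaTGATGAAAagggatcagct
SLC7A1: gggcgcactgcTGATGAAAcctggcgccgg
SLC3A2: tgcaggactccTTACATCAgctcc
In SLC1A4 and SLC3A2 the element is read on the opposite strand. Positions are counted from 1 annotated start of each gene, taken as base 1. In SLC1A4, SLC1A5, SLC38A1 and SLC3A2 that start lies inside the gene rather than at its outer 5′ end. The match begins at base -7 in SLC1A4 (chr2:64989381-64989410, plus strand), at -220 in SLC1A3 (chr5:36596357-36596386, plus strand) and at -97 in SLC1A5 (chr19:46784893-46784922, minus strand). It begins at -4 in SLC38A1 (chr12:46266502-46266531, minus strand), at 8 in SLC7A1 (chr13:29595663-29595692, minus strand) and at 38 in SLC3A2 (chr11:62881725-62881748, plus strand). A match of letters is a description and shows no binding.

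The other motifs were counted in the same windows on both strands. The E-box CACGTG was found in 8 of the 50 member windows (16%) and in 7.26% of all windows. The AP-1 element TGACTCA was found in 7 member windows (14%) and in 4.95% of all windows, and the antioxidant element core TGACNNNGC also in 7 (14%) and in 13.3% of all windows. The TATA box TATAAA was found in 3 member windows (6.0%) and in 11.5% of all windows, and the GC box GGGCGG in 32 (64.0%) and in 45.0% of all windows. The 250 bases before the second annotated start of SLC1A4, the member with the largest log2 fold change (chr2:64989149-64989398, plus strand), are shown as an example, with GC boxes of either strand in capitals:
SLC1A4 promoter: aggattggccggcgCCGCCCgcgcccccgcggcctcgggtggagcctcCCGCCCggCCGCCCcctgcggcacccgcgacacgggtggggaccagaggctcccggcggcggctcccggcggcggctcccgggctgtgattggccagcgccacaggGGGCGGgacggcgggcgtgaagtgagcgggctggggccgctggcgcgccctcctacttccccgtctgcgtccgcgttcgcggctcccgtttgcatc
The last 7 bases of this stretch are the beginning of the C/EBP-ATF match given above.

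Of the 36 members, 18 were higher with SB and 4 lower at a limma adjusted p-value below 0.05, and 14 were not called. Over all genes of the table the call was made for 65.6% (33.0% higher and 32.6% lower), and for the members the shares were 50.0% higher and 11.1% lower. The groups did not overlap for 18 members that were higher and 5 that were lower, where 31.0% and 30.5% of all genes, 61.5% in both directions together, behaved so. The median log2 fold change of the members was 0.16, and that of all genes was 0.00. Library sizes without the TMM factors (scaling factors the authors used) shifted the median log2 ratio of all genes from 0.00 to 0.11 and the share of higher genes among those called from 50.2% to 65.1%, while among called members it went from 81.8% to 84.0%. On the log2(RPKM + 1) scale, 3 of the higher members reached 0.5 (5.12% of all genes) and 2 of the lower ones reached -0.5 (5.45% of all genes). These counts depend on the scale and the scaling. With a pseudocount of 0.1, 10 members were higher by 0.5 (11.1% of all genes), and with voom on recovered reads 10 were (12.5% of all genes). Without the TMM factors 6 members were higher by 0.5 (8.36% of all genes) and 0 were lower by 0.5 (2.86% of all genes). Without control replicate 1, 19 members were higher and 9 were lower, where 37.6% and 37.9% of all genes were, and all 22 members called with it were called in the same direction. The summed level of the members was 853 ± 50.0 RPKM (SD, n = 4) in control and 927 ± 8.82 RPKM (SD, n = 4) in SB-treated cells.

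**Figure D2:**
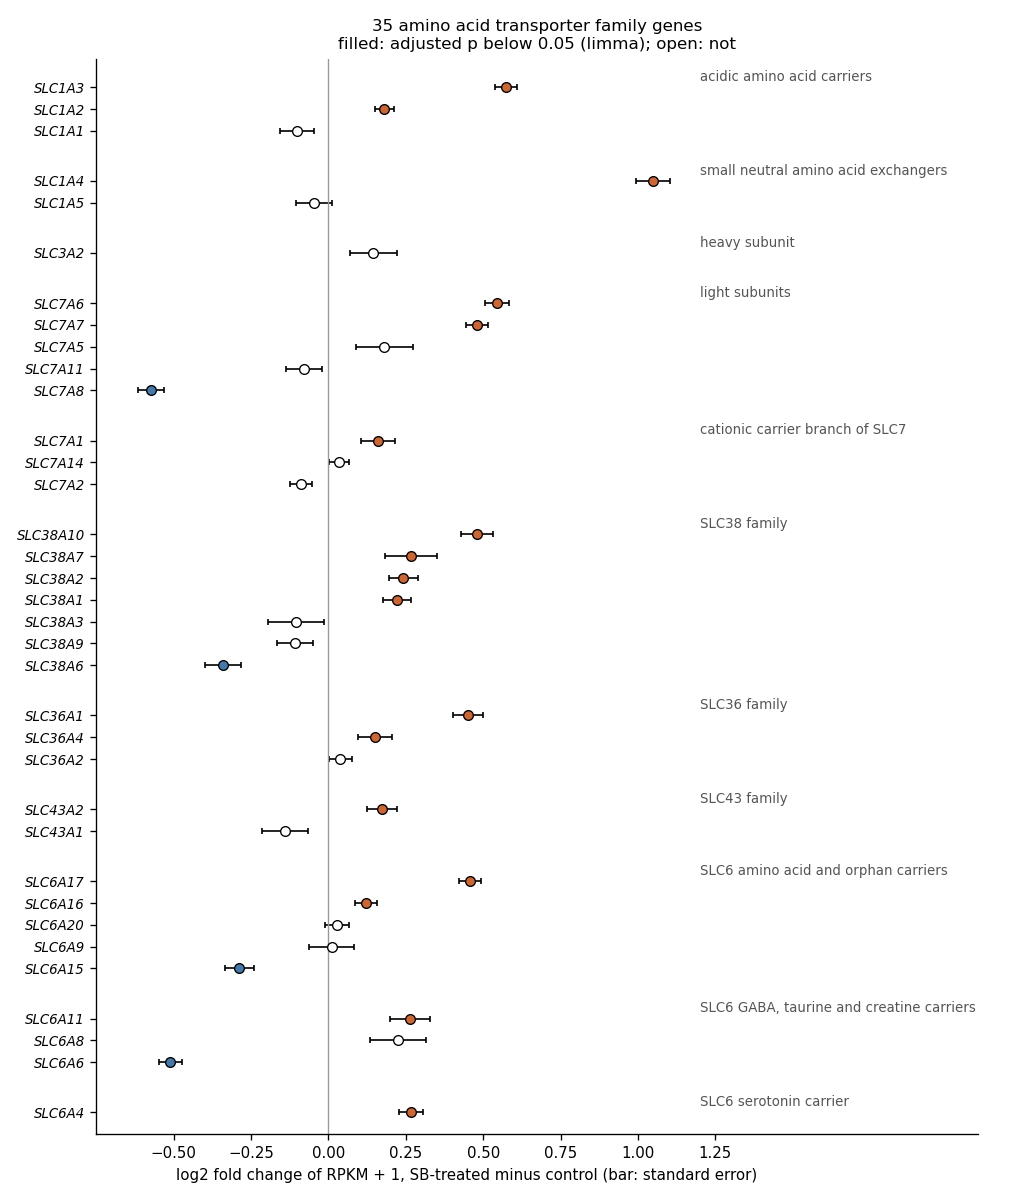
Log2 fold change of RPKM + 1 (SB-treated minus control) for 35 of the 36 members, grouped by role, with bars for the standard error. Filled points passed an adjusted p-value of 0.05 in limma, and open points did not. SLC1A4 lies farthest to the right at 1.05 and SLC7A8 farthest to the left at -0.57.

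SLC1A4 showed the largest log2 fold change of all members. It encodes ASCT1, an exchanger of alanine, serine, cysteine and threonine, and lies on chromosome 2 of GRCh38 from 64988479 to 65023865. The control replicates were at 3.45, 4.11, 4.22 and 4.26 RPKM and the SB-treated ones at 9.20, 9.45, 9.65 and 9.12 RPKM. Every SB-treated value was above the highest control by more than the spread of either group. The mean went from 4.01 ± 0.377 to 9.35 ± 0.243 RPKM (SD, n = 4), a ratio of 2.33 and a log2 fold change of 1.05 (SE, the standard error, 0.055, limma adjusted p = 6.48e-07). Its paralog SLC1A5 encodes ASCT2, an exchanger best known for glutamine, and is the most abundant member. SLC1A5 was at 142, 169, 169 and 168 RPKM in the control replicates and at 154, 159.6, 156 and 156 RPKM in the SB-treated ones. The groups overlapped through control replicate 1, and the log2 fold change was -0.05 (SE 0.058, limma adjusted p = 0.487). Without that replicate the log2 fold change of SLC1A5 was -0.11 (adjusted p = 0.00253), and without the TMM factors it was 0.06 (adjusted p = 0.423). In control cells SLC1A5 was therefore far more abundant than SLC1A4, and it remained so in SB-treated cells.

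Of the 3 acidic amino acid carriers in the table, 2 rose, where 33.0% of all genes did. SLC1A3 encodes EAAT1 (GLAST), a glutamate and aspartate carrier that is abundant in astrocytes. Its control replicates were at 11.2, 11.1, 10.3 and 11.1 RPKM and the SB-treated ones at 16.7, 16.3, 16.9 and 17.0 RPKM, without overlap. The log2 fold change of SLC1A3 was 0.57 (SE 0.036, limma adjusted p = 1.41e-06), a ratio of means of 1.53. SLC1A2, which encodes the glial glutamate carrier EAAT2, was close to the lower limit of the table. Its mean went from 0.141 ± 0.0154 to 0.293 ± 0.0249 RPKM (SD, n = 4). These were 69.8 recovered reads a library in control and 152.5 in SB-treated cells. The ratio of 2.08 appears as a log2 fold change of 0.18 with the pseudocount of 1 (SE 0.032, limma adjusted p = 7.23e-04) and of 0.71 with a pseudocount of 0.1. SLC1A1, which encodes the epithelial and neuronal carrier EAAT3, was at 2.50 ± 0.218 RPKM in control and 2.26 ± 0.172 RPKM in SB-treated cells (SD, n = 4) and was not called (limma adjusted p = 0.128).

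**Figure D3:**
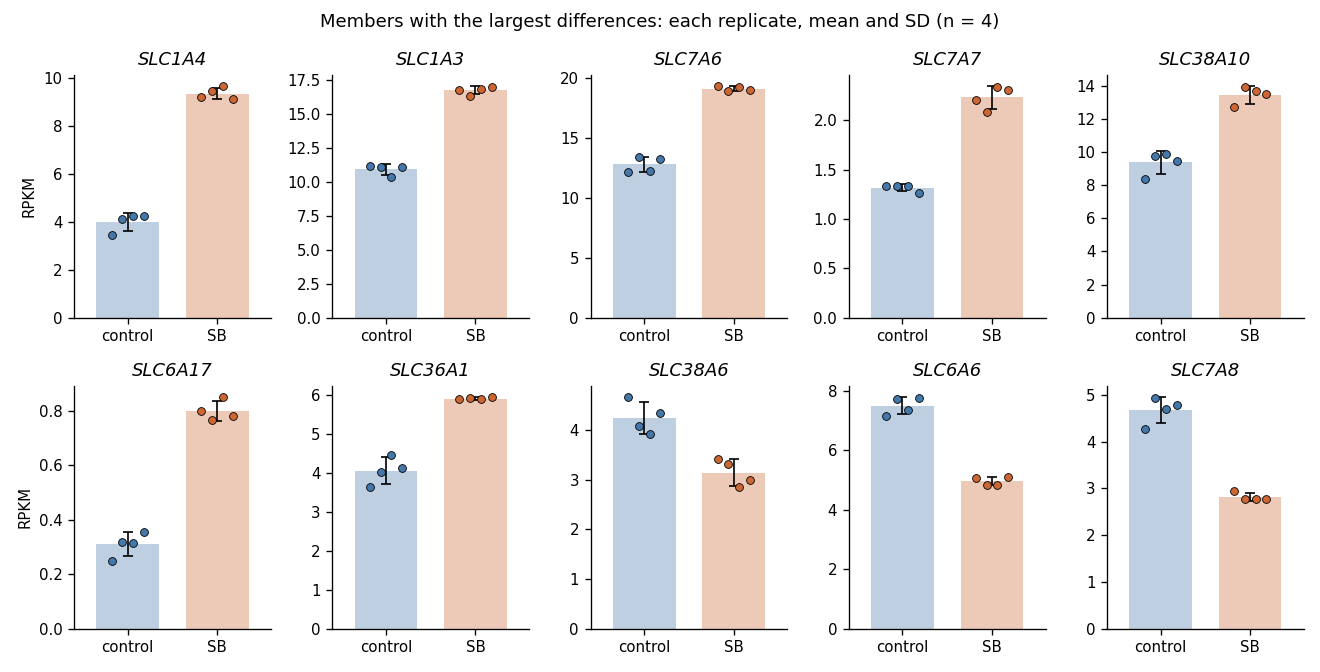
RPKM of the 10 members that were called, differed by 0.3 or more on the log2 scale and had no overlap of groups, in control and SB-treated (SB) cells. Points are the 4 replicates, bars start at 0 and give the mean, and error bars give the SD. The first 7 panels, from SLC1A4 to SLC36A1, rise and the last 3, SLC38A6, SLC6A6 and SLC7A8, fall.

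The heavy subunit SLC3A2 (4F2hc, CD98) and its most abundant partner SLC7A5, which encodes LAT1, the exchanger of leucine and other large neutral amino acids, were among the most abundant members. SLC3A2 was at 92.8, 119.7, 117 and 115 RPKM in the control replicates and at 117, 124, 125 and 124 RPKM in the SB-treated ones. SLC7A5 was at 102, 139.8, 134 and 140.5 RPKM in control and at 139, 151, 146 and 146 RPKM in SB-treated replicates. For both genes control replicate 1 was the lowest value and the groups overlapped. The log2 fold change was 0.15 for SLC3A2 (SE 0.075, limma adjusted p = 0.114). For SLC7A5 it was 0.18 (SE 0.092, limma adjusted p = 0.109). Neither was called without control replicate 1, when the log2 fold changes were 0.06 (adjusted p = 0.0970) and 0.07 (adjusted p = 0.0675), but both were called without the TMM factors, at 0.25 (adjusted p = 0.0181) and 0.29 (adjusted p = 0.0241). The pseudogene SLC7A5P2, whose reads may be shared with SLC7A5, was at 0.996 ± 0.123 RPKM (SD, n = 4) in control cells.

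The other light subunits moved in different directions. SLC7A6 encodes y+LAT2, which exchanges arginine for glutamine, and lies on chromosome 16 from 68264526 to 68301819. Its control replicates were at 12.2, 13.4, 12.3 and 13.3 RPKM and the SB-treated ones at 19.3, 18.9, 19.2 and 19.0 RPKM. SLC7A6 thus rose in every SB-treated replicate, with a log2 fold change of 0.55 (SE 0.040, limma adjusted p = 3.13e-06). In GENCODE 44, 44.4% of its exonic bases are shared with SLC7A6OS on the opposite strand, which went the other way, from 5.57 ± 0.360 to 4.01 ± 0.325 RPKM (SD, n = 4), and whether the counting used strand is not given in the sources used here. SLC7A7 encodes y+LAT1, the related carrier of kidney, gut and macrophages. Its control replicates were at 1.33, 1.34, 1.33 and 1.26 RPKM and the SB-treated ones at 2.20, 2.08, 2.33 and 2.30 RPKM. This was a rise without overlap, with a ratio of means of 1.70 and a log2 fold change of 0.48 (SE 0.036, limma adjusted p = 3.78e-06).

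SLC7A8 encodes LAT2, a carrier of neutral amino acids of many sizes, and lies on chromosome 14 from 23125295 to 23183660. It was at 4.28, 4.93, 4.69 and 4.78 RPKM in the control replicates and at 2.94, 2.77, 2.76 and 2.77 RPKM in the SB-treated ones. SLC7A8 fell in every SB-treated replicate, and its log2 fold change of -0.57 was the lowest among the members (SE 0.042, limma adjusted p = 3.47e-06). SLC7A11 encodes xCT, which imports cystine in exchange for glutamate and feeds glutathione synthesis. SLC7A11 was at 18.9, 16.3, 15.9 and 16.1 RPKM in control and at 16.9, 15.6, 15.1 and 15.7 RPKM in SB-treated replicates. The groups overlapped, and its log2 fold change was -0.08 (SE 0.058, limma adjusted p = 0.255) and 0.02 without the TMM factors. The antisense gene SLC7A11-AS1, which overlaps 8.97% of the exonic bases of SLC7A11, was at 0.379 ± 0.0859 RPKM (SD, n = 4) in control cells.

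Because each of these light subunits needs SLC3A2, the RPKM of each was divided by that of SLC3A2 in the same library, a ratio in which the scaling of the library cancels. Control and SB-treated ratios were set against each other by exact two-sided permutation, which with 4 replicates a group cannot give a p below 0.0286, and the 5 pairs were adjusted together. There was 1.16 ± 0.0482 times as much SLC7A5 as SLC3A2 transcript in control cells and 1.19 ± 0.0185 times as much in SB-treated cells (SD, n = 4). That ratio differed by 0.04 on the log2 scale, within the spread of the controls (exact permutation p = 0.314, adjusted p = 0.314). SLC7A6 stood at 0.116 ± 0.0113 of SLC3A2 in control and at 0.156 ± 0.00586 in SB-treated cells (SD, n = 4), a log2 difference of 0.43. SLC7A7 stood at 0.0119 ± 0.00161 and 0.0182 ± 0.000973 (SD, n = 4), a log2 difference of 0.61. SLC7A8 stood at 0.0422 ± 0.00269 and 0.0229 ± 0.00142 (SD, n = 4), a log2 difference of -0.88. For SLC7A6, SLC7A7 and SLC7A8 the groups did not overlap (exact permutation p = 0.0286 each, adjusted p = 0.0476). The levels of 61.5% of all single genes also did not overlap between the groups, and no such share is given for ratios. These ratios contain the levels of the light subunits, which were called on their own, so they are not independent of those calls. SLC7A11 stood at 0.153 ± 0.0333 and 0.129 ± 0.0100 (SD, n = 4), with overlap (exact permutation p = 0.114, adjusted p = 0.143). In control cells SLC7A8 was above SLC7A7 in every replicate relative to SLC3A2, at 0.0400 to 0.0461 against 0.0109 to 0.0143. In SB-treated cells SLC7A8 and SLC7A7 were closer together, at 0.0221 to 0.0250 against 0.0167 to 0.0188.

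**Figure D4:**
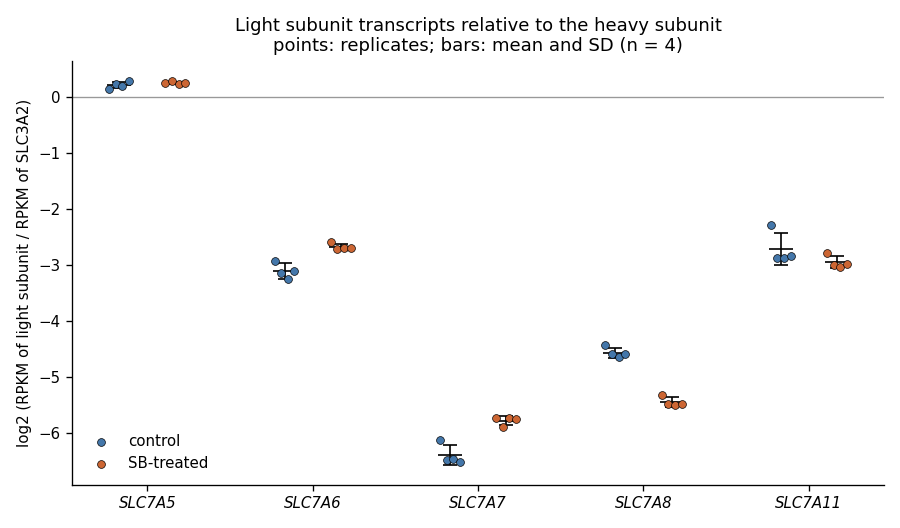
Log2 of the RPKM of each light subunit over that of the heavy subunit SLC3A2, in each of the 4 control and 4 SB-treated replicates. Bars give the mean and SD. SLC7A5 lies just above 0, at 0.21 in control and 0.25 in SB-treated cells, SLC7A6 and SLC7A7 shift upward, and SLC7A8 shifts downward from -4.57 to -5.45.

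SLC7A1, which encodes CAT1, the main carrier of arginine and lysine in dividing cells, rose slightly. It was at 73.8, 87.2, 84.8 and 88.7 RPKM in the control replicates and at 93.3, 95.4, 92.7 and 92.1 RPKM in the SB-treated ones. The lowest SB-treated value lay above the highest control, and the log2 fold change was 0.16 (SE 0.056, limma adjusted p = 0.0287). The call for SLC7A1 was lost when any 1 of the SB-treated replicates was left out, with adjusted p-values of 0.0515 to 0.0714. Without control replicate 1, its lowest control, the log2 fold change was 0.10 (adjusted p = 0.00634). SLC7A2, which encodes CAT2, was at 10.6 ± 0.391 RPKM in control and 9.94 ± 0.184 RPKM in SB-treated cells (SD, n = 4). All SB-treated values of SLC7A2 were below all controls, but it missed the threshold (limma adjusted p = 0.0514), with a log2 fold change of -0.09, and of 0.01 without the TMM factors. SLC7A2 was called lower without control replicate 1 (log2 fold change -0.07, adjusted p = 0.0451), without control replicate 3 (-0.11, adjusted p = 0.0276) and with voom (-0.10, adjusted p = 0.0477). SLC7A14, a relative of these carriers, was at 0.0896 ± 0.0179 RPKM in control and 0.115 ± 0.0172 RPKM in SB-treated cells (SD, n = 4) and was not called (limma adjusted p = 0.370).

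Of the 7 members of the SLC38 family, 4 rose and 1 fell, where 33.0% of all genes rose and 32.6% fell. SLC38A2 encodes SNAT2, a system A carrier whose activity is known to increase when amino acids are scarce. Its control replicates were at 90.7, 81.6, 78.7 and 84.1 RPKM and the SB-treated ones at 102, 97.0, 97.6 and 100.1 RPKM. The groups did not overlap, and the log2 fold change was 0.24 (SE 0.046, limma adjusted p = 0.00123). The neighbouring gene on chromosome 12, SLC38A1, encodes SNAT1, a glutamine carrier of the same kind, and rose from 66.6 ± 3.87 RPKM to 77.8 ± 1.70 RPKM (SD, n = 4), by 0.22 on the log2 scale (SE 0.045, limma adjusted p = 0.00175). For this pair of genes control replicate 1 was the highest control, unlike for SLC3A2 and SLC7A5. SLC38A10 has been described as a carrier of glutamine and other amino acids inside the cell. It was at 8.39, 9.78, 9.85 and 9.46 RPKM in the control replicates and at 12.7, 13.9, 13.7 and 13.5 RPKM in the SB-treated ones. That rise was without overlap, with a log2 fold change of 0.48 (SE 0.052, limma adjusted p = 3.43e-05).

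SLC38A7, which encodes SNAT7, an exporter of glutamine and asparagine from lysosomes, rose from 3.85 ± 0.619 RPKM to 4.80 ± 0.0958 RPKM (SD, n = 4). Its log2 fold change was 0.27 (SE 0.084, limma adjusted p = 0.0180), and 0.17 (adjusted p = 2.31e-04) without control replicate 1, which was the lowest control at 2.93 RPKM. SLC38A6 is a less studied member of the family. SLC38A6 was at 4.66, 4.07, 3.93 and 4.33 RPKM in the control replicates and at 3.42, 3.30, 2.84 and 2.99 RPKM in the SB-treated ones. This was a fall without overlap, with a log2 fold change of -0.34 (SE 0.058, limma adjusted p = 6.15e-04). SLC38A9 encodes the lysosomal arginine sensor of the mTORC1 pathway and was at 8.67 ± 0.774 RPKM in control and 7.96 ± 0.360 RPKM in SB-treated cells (SD, n = 4), not called (limma adjusted p = 0.124). SLC38A3 encodes SNAT3, the system N carrier of liver and kidney, and was at 4.50 ± 0.774 RPKM in control and 4.08 ± 0.173 RPKM in SB-treated cells (SD, n = 4). SLC38A3 was not called (limma adjusted p = 0.336), but without control replicate 1, its lowest control, the log2 fold change was -0.21 (adjusted p = 0.00196).

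Of the 3 members of the SLC36 family, SLC36A1 and SLC36A4 rose, where 33.0% of all genes did. SLC36A1 encodes PAT1, which moves glycine, alanine and proline with protons out of lysosomes and into cells. Its control replicates were at 3.64, 4.02, 4.47 and 4.12 RPKM and the SB-treated ones at 5.89, 5.92, 5.89 and 5.95 RPKM. The SB-treated values were nearly equal and all above the controls, with a log2 fold change of 0.45 (SE 0.048, limma adjusted p = 2.92e-05). SLC36A4, which encodes PAT4, was at 6.56 ± 0.621 RPKM in control and 7.37 ± 0.122 RPKM in SB-treated cells (SD, n = 4), a log2 fold change of 0.15 (SE 0.054, limma adjusted p = 0.0338). Its groups overlapped through control replicate 1, the highest control at 7.47 RPKM, and the call was lost in each fit that left out another replicate (adjusted p-values of 0.0530 to 0.0922). SLC36A2, which encodes PAT2, was at 0.364 ± 0.0325 RPKM in control and 0.401 ± 0.0478 RPKM in SB-treated cells (SD, n = 4) and was not called (limma adjusted p = 0.386).

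Of the 2 carriers of the SLC43 family in the table, SLC43A2 (LAT4) rose from 0.704 ± 0.0883 RPKM to 0.920 ± 0.0765 RPKM (SD, n = 4), with a log2 fold change of 0.17 (SE 0.048, limma adjusted p = 0.00962). SLC43A1 (LAT3), which was far more abundant, was at 31.1 ± 3.58 RPKM in control and 27.9 ± 0.900 RPKM in SB-treated cells (SD, n = 4). It was not called (limma adjusted p = 0.122), but without control replicate 1, its lowest control, the log2 fold change was -0.22 (adjusted p = 4.16e-04).

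Of the 5 SLC6 amino acid and orphan carriers, 2 rose, 1 fell and 2 were not called. Over all genes, 33.0% rose and 32.6% fell. SLC6A17 encodes NTT4, a vesicular carrier of neutral amino acids in neurons. It was at 0.250, 0.317, 0.315 and 0.355 RPKM in the control replicates and at 0.797, 0.766, 0.849 and 0.779 RPKM in the SB-treated ones. This was the highest ratio of means among the members, 2.58, yet both groups stayed below 1 RPKM. The log2 fold change of SLC6A17 was 0.46 with the pseudocount of 1 (SE 0.036, limma adjusted p = 5.31e-06) and 1.14 with 0.1. SLC6A15 encodes B0AT2, a carrier of branched-chain amino acids and proline that is mainly known from brain, and fell from 28.0 ± 2.01 RPKM to 22.7 ± 0.207 RPKM (SD, n = 4). Its log2 fold change was -0.29 (SE 0.048, limma adjusted p = 5.44e-04). SLC6A16, an orphan carrier, rose from 0.762 ± 0.0518 to 0.915 ± 0.0432 RPKM (SD, n = 4), with a log2 fold change of 0.12 (limma adjusted p = 0.0135).

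SLC6A9 encodes GlyT1, the carrier of glycine, the amino acid to which benzoate is joined in liver. It was at 8.90, 11.6, 11.2 and 11.5 RPKM in the control replicates and at 10.5, 10.9, 10.9 and 10.9 RPKM in the SB-treated ones. With all libraries its groups overlapped and the log2 fold change was 0.01 (SE 0.072, limma adjusted p = 0.907). Without control replicate 1, the lowest value, the log2 fold change of SLC6A9 turned to -0.07 (adjusted p = 0.0380). SLC6A20 encodes SIT1, which carries proline, and was at 0.247 ± 0.0357 RPKM in control and 0.271 ± 0.0468 RPKM in SB-treated cells (SD, n = 4), not called (limma adjusted p = 0.551).

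SLC6A6 encodes TauT, the carrier of taurine, and lies on chromosome 3 from 14402576 to 14489349. It was at 7.16, 7.73, 7.35 and 7.75 RPKM in the control replicates and at 5.08, 4.84, 4.83 and 5.09 RPKM in the SB-treated ones. All SB-treated values were lower, with a log2 fold change of -0.51 (SE 0.037, limma adjusted p = 3.19e-06). SLC6A11 encodes GAT3, a carrier of GABA. Its mean rose from 2.50 ± 0.314 to 3.19 ± 0.167 RPKM (SD, n = 4), with a log2 fold change of 0.26 (limma adjusted p = 0.00556). SLC6A8, the creatine carrier, was at 27.6 ± 3.98 RPKM in control and 32.2 ± 0.969 RPKM in SB-treated cells (SD, n = 4). Its groups did not overlap, but it missed the threshold (log2 fold change 0.23, limma adjusted p = 0.0514), and without control replicate 1 the log2 fold change was 0.12 (adjusted p = 0.0129). SLC6A8 was also called with voom (adjusted p = 0.0369), without control replicate 2 or 4 and without the TMM factors. Its pseudogene copy SLC6A10P, whose reads may be shared with it, was at 0.709 ± 0.140 RPKM in control and 1.07 ± 0.167 RPKM in SB-treated cells (SD, n = 4). The serotonin carrier SLC6A4, no amino acid carrier, rose from 0.719 ± 0.0447 to 1.07 ± 0.0739 RPKM (SD, n = 4), with a log2 fold change of 0.27 (limma adjusted p = 2.11e-04).

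**Figure D5:**
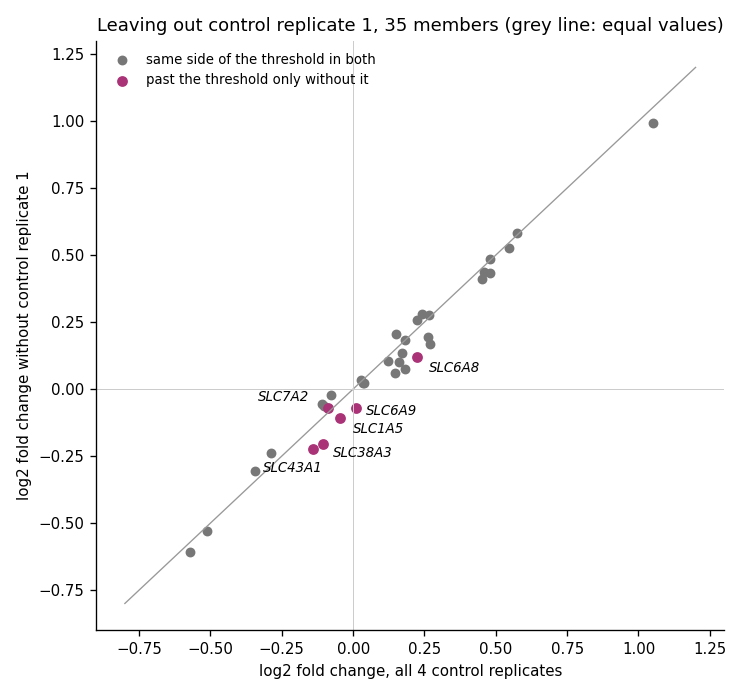
Log2 fold change of 35 of the 36 members with all 4 control replicates (x axis) and without control replicate 1 (y axis). Purple points passed an adjusted p-value of 0.05 only without that replicate, and these were SLC6A8, SLC6A9, SLC1A5, SLC7A2, SLC38A3 and SLC43A1. The members with the largest differences stay near the grey line of equal values, with SLC1A4 at 1.05 and 0.99.

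Genes of amino acid handling outside these families were read from lists. Of 21 other amino acid transporters, 14 had a row, and 5 of these rose and 4 fell, with a median log2 fold change of 0.05. Of all genes, 33.0% rose and 32.6% fell. SLC66A1 was among those without a row, but it was looked up under that symbol only. The largest differences among those called were in SLC25A22, the mitochondrial glutamate carrier, which rose from 10.8 ± 1.59 to 15.1 ± 0.731 RPKM (SD, n = 4), and in SLC25A13, the aspartate and glutamate carrier citrin, which fell from 36.1 ± 1.14 to 27.1 ± 0.542 RPKM (SD, n = 4). CTNS, the lysosomal cystine exporter, rose from 4.79 ± 0.315 to 6.16 ± 0.112 RPKM (SD, n = 4). MFSD12, which is needed for the import of cysteine into lysosomes, went from 15.9 ± 2.24 to 19.9 ± 1.61 RPKM (SD, n = 4), with overlapping groups. The limma adjusted p-values were 0.00159 for SLC25A22, 9.58e-06 for SLC25A13, 1.76e-04 for CTNS and 0.0161 for MFSD12.

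The 42 symbols listed for the sensing of amino acids by mTORC1 name some genes by both a newer and an older symbol. The 5 symbols without a row are newer names of genes present under the older ones. Of the 37 genes with a row, 15 rose and 13 fell, and the median log2 fold change was 0.06. Over all genes, 33.0% rose and 32.6% fell. TSC2, a brake on mTORC1, rose from 23.5 ± 3.40 to 36.8 ± 1.61 RPKM (SD, n = 4, limma adjusted p = 2.35e-04). LAMTOR2, a part of the lysosomal Ragulator complex, fell from 81.1 ± 3.74 to 57.9 ± 2.11 RPKM (SD, n = 4, limma adjusted p = 1.23e-05), and C12orf66, a part of the KICSTOR complex, fell from 5.16 ± 0.122 to 3.40 ± 0.187 RPKM (SD, n = 4, limma adjusted p = 5.59e-06).

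Of 20 genes listed for the response to amino acid shortage, 4 rose and 6 fell (33.0% and 32.6% of all genes), with a median log2 fold change of -0.03, and without control replicate 1 the counts were 8 and 11 (37.6% and 37.9% of all genes in that fit). ATF4, the transcription factor of that response, rose from 249.6 ± 7.80 to 302 ± 4.00 RPKM (SD, n = 4), by 0.28 on the log2 scale (limma adjusted p = 8.51e-05). ASNS, the asparagine synthetase that ATF4 is known to induce, was at 228 ± 3.32 RPKM in control and 219 ± 3.56 RPKM in SB-treated cells (SD, n = 4). All SB-treated values of ASNS were below all controls (30.5% of all genes behaved so), but it was not called (limma adjusted p = 0.141). DDIT4, an inhibitor of mTORC1, fell from 401 ± 19.1 to 219.9 ± 4.28 RPKM (SD, n = 4), by 0.86 on the log2 scale (limma adjusted p = 4.26e-07). SHMT2, which makes glycine from serine in mitochondria, fell from 205 ± 16.5 to 131 ± 1.43 RPKM (SD, n = 4, limma adjusted p = 9.12e-06). PSAT1, an enzyme of serine synthesis, fell from 322 ± 19.1 to 237 ± 2.44 RPKM (SD, n = 4, limma adjusted p = 2.11e-05), while TRIB3, a pseudokinase and target of ATF4, rose from 38.7 ± 4.21 to 53.9 ± 2.45 RPKM (SD, n = 4, limma adjusted p = 3.93e-04).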

How the data were processed

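RNA-seq of 8 cultures labelled HepG2 (4 control, 4 SB-treated) was analysed. Per the labels and the study's methods, the authors made stranded libraries, mapped single reads to hg38 with TopHat2 2.1.0, counted them per gene with featureCounts 1.5.0, dropped genes that did not pass 1 CPM in 2 or more samples, scaled libraries with TMM in edgeR 3.16.5 and deposited RPKM values. The table also holds the authors' own deposited log2 fold changes, mean log2 CPM, p-values and FDR, which were not used. The design named limma on log2(RPKM + 1) (limma 3.58.1, R 4.3.3), fitted over all 14526 genes with Benjamini-Hochberg adjustment and no further filter. Whole reads were recovered from the ratios of RPKM between libraries for 100% of the genes (Python 3.11.15, within 0.02 reads plus rounding, up to a factor shared by all libraries). The fits and the recovery were tested on simulated data. Depth was 36964791 to 44846247 recovered reads per library, and intervals for counting error were not needed for means over replicates.

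Members given in full were those with an adjusted p-value below 0.05, an absolute log2 fold change of at least 0.3 and no overlap of groups, and SLC7A5, SLC3A2, SLC7A11, SLC1A5, SLC38A2 and SLC7A1. The members and lists were chosen with earlier results of these data known. Of each list, up to 4 called genes with the largest absolute log2 fold change were named, and ATF4, ASNS and ACSM3 were added after their values were seen. Alternatives were a pseudocount of 0.1, only genes with a mean of at least 1 RPKM, other library scalings, voom on recovered reads, a replicate block and the omission of single replicates. Positions and promoters are from RefSeq (GRCh38.p14) and overlaps from GENCODE 44, both of the build hg38. Exact permutation tests were two-sided. The study's ChIP-seq data were not analysed here, and the values of 1 member and of some listed genes are not reported here.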

Additional observations from a re-analysis of the deposited data

Results flagged for a closer look

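A sample lay far from the other 3 of its group on the log2(RPKM + 1) scale, with a gap to its nearest neighbour that, as a share of the group's whole range, passed Dixon's 95% critical value for 4 samples, in 16 of the 72 groups of members examined, where chance gives about 3.6. In 10 of the 16 it was control replicate 1. It was the lowest control for SLC6A9 (gap 0.858 of the range), SLC3A2 (0.855), SLC38A7 (0.914), SLC7A5 (0.848), SLC1A5 (0.960), SLC1A4 (0.830), SLC6A11 (0.938) and SLC36A2 (0.864), and the highest for SLC6A15 (0.869) and SLC7A11 (0.862). Control replicate 4 was lowest for SLC7A7 (0.896), and control replicate 3 for SLC6A4 (0.840) and SLC1A3 (0.956). SB-treated replicate 1 was lowest for SLC6A9 (0.908) and SLC3A2 (0.859) and highest for SLC7A8 (0.961). Without control replicate 1 the log2 fold change was 0.20 for SLC6A11 and -0.24 for SLC6A15, both still called.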

How the results depend on the processing

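Of the 22 called members, 20 kept their direction and their call under all 15 alternatives in which they were fitted, and the exceptions were SLC36A4 and SLC7A1, given above. Without the TMM factors the log2 fold change turned to 0.057 for SLC1A5, 0.021 for SLC7A11 and 0.0072 for SLC7A2, none of them called, and without control replicate 1 that of SLC6A9 turned to -0.071 (its highest value was 0.044, without control replicate 2). The count of 3 members higher by at least 0.5 was 10 with a pseudocount of 0.1, 6 without the TMM factors, 10 with voom on recovered reads and 10 with voom and the replicate block, a setting chosen after seeing the data. The count of 2 members lower by at least 0.5 was 0 without the TMM factors. Without these factors, 2 other amino acid transporters were lower in place of 4 and 8 sensing genes were lower in place of 13. In the same setting, 8 response genes were higher in place of 4. The counts over all genes moved the same way there, with 3355 lower in place of 4740 and 6253 higher in place of 4787. Over the 8 fits that omitted 1 replicate, members higher ranged from 16 to 19 and members lower from 4 to 9 (without control replicate 1). Over all genes, those higher ranged from 4311 to 5459 and those lower from 4285 to 5511, both highest without control replicate 1. Members higher by 0.5 ranged from 3 to 4 and members lower by 0.5 from 1 (without control replicate 2 or 4) to 2. Other transporters lower ranged from 2 (without control replicate 2 or 4, or SB-treated replicate 1, 3 or 4) to 4, response genes higher from 4 to 8 and lower from 6 to 11, with both highest counts without control replicate 1. The causes were not tested. The other counts stayed within 1.5 times.

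Control and SB-treated replicates of the same number deviated from their means with correlations of 0.380, 0.327, 0.173 and -0.160 for numbers 1 to 4, so the numbers were not taken as pairs. With the replicate block, 21 members were higher and 5 were lower, and it called SLC3A2 (adjusted p = 0.0447), SLC7A5 (0.0434), SLC6A8 (0.0238) and SLC38A9 (0.0441), which were not called without it. The subunit ratios kept their direction under each alternative run, but leaving out a replicate or the block leaves too few samples for their exact test to reach 0.05.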
